A study of Homo sapiens with 6 samples.

Results

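E2F7 binding in growing IMR90 cells was compared with binding in quiescent IMR90 cells, with 1 chromatin immunoprecipitation and sequencing (ChIP-seq) library per state. IMR90 is a human fibroblast line from fetal lung. The material was every peak on chromosomes 1 to 22 and X in the authors' lists for these libraries, 9466 growing and 10225 quiescent peaks, which together are 19691 of the 63371 peaks in the 3 lists of the series. The growing and the quiescent cells are labelled as untreated, whereas the protocol text, shared by all samples, describes infection with an ER-Ras vector and hairpins and collection on day 4 of tamoxifen. How quiescence was reached is not given in the sources used here. Both immunoprecipitations used 10 µg of the same E2F7 antibody. Another list came from cells made senescent by Ras and given a hairpin against RB, called RB knockdown cells here, and took no part in building the comparison. The lists hold no measure of cell state, so the labels growing and quiescent could not be checked against markers.

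E2F7 is an atypical E2F transcription factor that binds DNA without a DP partner and represses genes used for DNA replication and cell-cycle progression. Its own gene is an E2F target, so that in cycling cells its level is known to rise towards S phase. Quiescence is a reversible arrest outside the cycle, in which E2F target genes are known to be held down by pocket proteins, the family that includes RB. The series title and design name E2F7 binding in growing and senescent cells as the subject, and the quiescent library adds a state labelled as quiescent and untreated.

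The libraries were of similar depth. After the caller's limit on duplicate tags, the growing library held 22628990 tags and the quiescent library 25212239, a ratio of 1.11. The duplicate limit removed 9.86% of growing and 4.47% of quiescent tags. The lists differed more than the depth did. Peaks on these chromosomes held 1.49% of the filtered growing tags and 2.74% of the filtered quiescent tags. Median peak widths were 711 and 1091 bp. With 1 library per state, a difference between the libraries cannot be told apart from a difference between the states. Both lists were called with a fragment length of 200 bp against the same control library, and whether that was the series' IgG or its input sample is not given in the sources used here. With 1 library per state no replicate error exists and no test between states was possible. All intervals below are 95% exact intervals that cover counting error only. Tag counts per 1000000 filtered tags are called scaled tags.

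Most called E2F7 sites lay in the list of one state alone. Peaks that overlapped by at least 1 bp were merged, which gave 18233 regions. Of these, 1393 regions (7.64%) held a peak in both states, 8029 held a growing peak alone and 8811 held a quiescent peak alone. By tags, regions with both were the stronger ones in each list. By fold enrichment over local background this held only in the quiescent list, with medians of 6.96-fold against 6.26-fold in quiescent-only regions. In the growing list the order was the opposite, with 5.9-fold in regions with both against 6.56-fold in growing-only regions. The growing peaks of regions with both had a median of 2.65 scaled tags (60 tags) against 0.928 (21 tags) in growing-only regions. Their quiescent peaks had a median of 3.21 scaled tags (81 tags) against 1.86 (47 tags) in quiescent-only regions. They were also wider, with 1337 bp against 669 bp in the growing list and 1475 bp against 1054 bp in the quiescent list, and width itself raises the chance of touching a peak of the other list. The regions with both held 34.1% of the growing list's tags in peaks and 24.4% of those of the quiescent list.

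The lists differed in how secure their peaks were. Growing-only regions had a median false discovery rate (FDR, the caller's own percent) of 72.8%, and 21 of them reached 5% or less. Quiescent-only regions had a median FDR of 29.1%, and 1172 reached 5% or less. In regions with both, the median FDR was 6.13% for the quiescent peak and 70.9% for the growing peak. A region in 1 list means that no peak passed the caller's threshold in the other library; the lists give no tag count there, so no ratio can be formed. With only peaks at an FDR of at most 5%, 173 growing and 1816 quiescent peaks were left, and 124 regions held both. Of the growing peaks, 73.4% then had a partner against 15.2% of all growing peaks. Of the quiescent peaks, 6.99% did against 13.8% of all quiescent peaks. The quiescent share could only be small with so few growing peaks left. Its fall therefore does not show less sharing of secure quiescent peaks.

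Whether a peak had a partner in the other state followed its strength, and not to the same degree in each direction. Among growing peaks under 1 scaled tag, 1.99% (1.61% to 2.44%, 92 of 4619) had a quiescent partner. The share was 13.2% (12.1% to 14.5%, 423 of 3198) from 1 to 2 scaled tags and 48.8% (45.9% to 51.8%, 549 of 1124) from 2 to 4. From 4 to 8 it was 68.8% (64.1% to 73.2%, 289 of 420). At 8 scaled tags or more it reached 80.0% (71.1% to 87.2%, 84 of 105). Strong growing peaks were thus mostly called in quiescent cells as well.

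Quiescent peaks of the same strength had lower shares with a growing partner. The share was 9.22% (8.28% to 10.2%, 320 of 3469) from 1 to 2 scaled tags and 14.9% (13.7% to 16.2%, 503 of 3368) from 2 to 4. From 4 to 8 it was 26.5% (24.3% to 28.9%, 377 of 1421). At 8 or more it was 59.4% (53.2% to 65.4%, 155 of 261). The intervals of the 2 directions did not overlap in any class from 1 scaled tag upwards. Below 1 scaled tag the order was the opposite, with 3.46% (2.64% to 4.44%, 59 of 1706) of quiescent peaks. In every class the list with more peaks had the lower share, so direction cannot be told apart from class size.

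**Figure D1:**
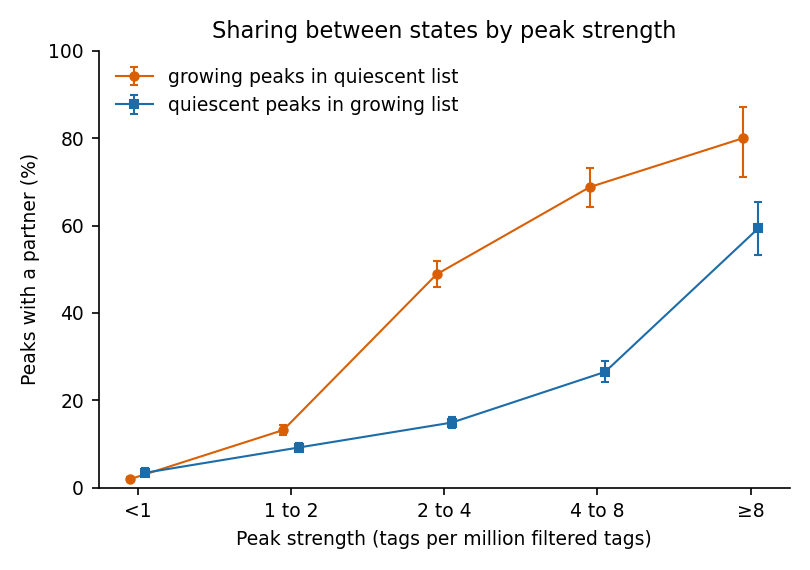
Share of peaks with a partner in the other state (vertical axis, %) against peak strength in scaled tags (horizontal axis, 5 classes), for growing peaks (orange circles) and quiescent peaks (blue squares), with 95% exact binomial intervals as bars. Both curves rise with strength, to 80.0% for growing and 59.4% for quiescent peaks at 8 or more.

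Peaks without a partner were rarely near misses. Of the 8029 growing peaks that overlapped no quiescent peak, 38 lay within 200 bp of one and 182 (2.27%) within 1000 bp, and the median gap was 67.5 kb. Of the 8811 quiescent peaks without a partner, 39 lay within 200 bp of a growing peak and 182 (2.07%) within 1000 bp, with a median gap of 79.1 kb.

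The list from senescent cells with RB knockdown, which was called with a shorter fragment length and holds 43643 peaks on these chromosomes, showed how the 3 kinds of region recurred in another library. Of all 18233 regions, 36.3% overlapped an RB knockdown peak. The share was 85.9% (83.9% to 87.6%) for regions with both, 49.96% (48.9% to 51.0%) for quiescent-only regions and 12.6% (11.9% to 13.4%) for growing-only regions. With only peaks at an FDR of at most 5%, regions were formed again, and those of 1 state alone then include regions whose partner failed this limit. The order of the last 2 turned, to 82.4% of 1689 quiescent-only and 91.3% of 46 growing-only regions, a small number. In the full lists only 21 growing-only and 1172 quiescent-only regions reached this FDR, so the turned order does not describe the classes above. The 3 lists share the control library, and its part in these overlaps was not tested.

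The gap between growing-only and quiescent-only regions narrowed once regions of like strength were set side by side. Under 1 scaled tag, 2.72% (2.26% to 3.23%) of growing-only and 10.1% (8.72% to 11.7%) of quiescent-only regions had an RB knockdown peak. From 1 to 2 scaled tags the shares were 14.6% (13.3% to 16.0%) and 36.8% (35.1% to 38.5%), and from 2 to 4 they were 60.2% (56.0% to 64.2%) and 71.1% (69.4% to 72.7%). From 4 to 8 scaled tags the shares were 90.1% (83.6% to 94.6%, 118 of 131) and 90.0% (88.1% to 91.8%, 940 of 1044), and their intervals overlapped. The growing-only regions of this strength were few: 4527 of the 8029 lay under 1 scaled tag. Of the 8811 quiescent-only regions, 1647 did.

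**Figure D2:**
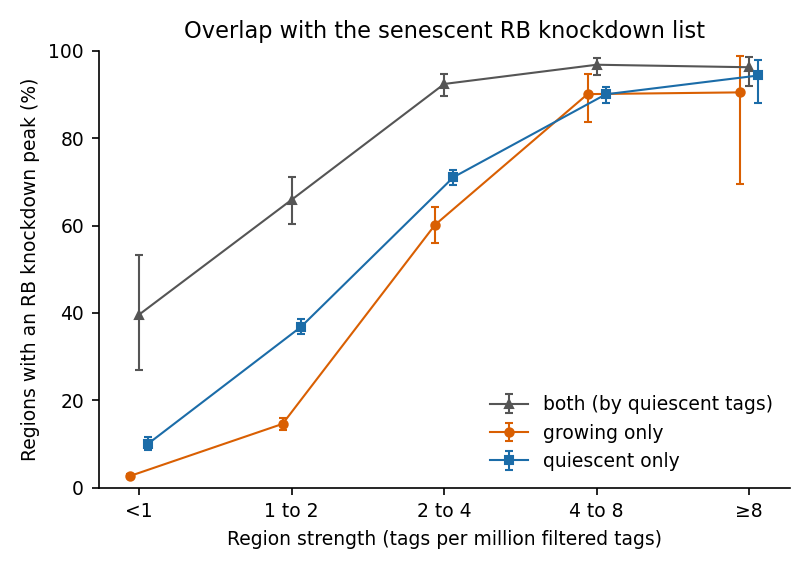
Share of regions that overlap a peak of senescent RB knockdown cells (vertical axis, %) against region strength in scaled tags (horizontal axis, 5 classes), for growing-only regions (orange circles), quiescent-only regions (blue squares) and regions with both, placed by their quiescent tags (grey triangles); bars are 95% exact binomial intervals. From 4 to 8 scaled tags the growing-only and quiescent-only shares are 90.1% and 90.0%.

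In regions with both, the quiescent library had somewhat more E2F7 tags, as it had over its whole list (2.74% against 1.49% of filtered tags in peaks). Scaling by filtered tags leaves that difference between the libraries in place. The median ratio of scaled tags, quiescent over growing, was 1.20 (0.27 on the log2 scale, quartiles -0.14 and 0.69), and 927 of 1393 regions (66.5%) were higher in quiescent cells. At a threshold of 2-fold, 191 regions (13.7%) were higher in quiescent cells and 33 (2.37%) were higher in growing cells. The counting error of single regions was large beside these differences. The ratio's interval included 1 in 758 regions, lay above 1 in 507 and lay below 1 in 128, without any allowance for the number of regions. Across the 1393 regions, which share peak width and the control library as sources of likeness, Spearman's rho was 0.76 for scaled tags and 0.68 for tag density. It was 0.33 for fold enrichment over local background.

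Peak width moved with this difference. In regions with both, the quiescent peaks were the wider ones in 852 and the growing peaks in 539. Of the 191 regions at least 2-fold higher in quiescent cells, 184 had the wider peaks in quiescent cells. All 33 regions at least 2-fold higher in growing cells had the wider peaks in growing cells. Tag density, the scaled tags per kb of peak, differed less: the median density ratio was 1.06 (0.084 on the log2 scale, quartiles -0.13 and 0.33). By density, 35 regions (2.51%) were at least 2-fold higher in quiescent cells and 4 (0.287%) in growing cells. Peak borders are set by the caller in each library, so scaled tags and width cannot be told apart as measures of 1 site.

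**Figure D3:**
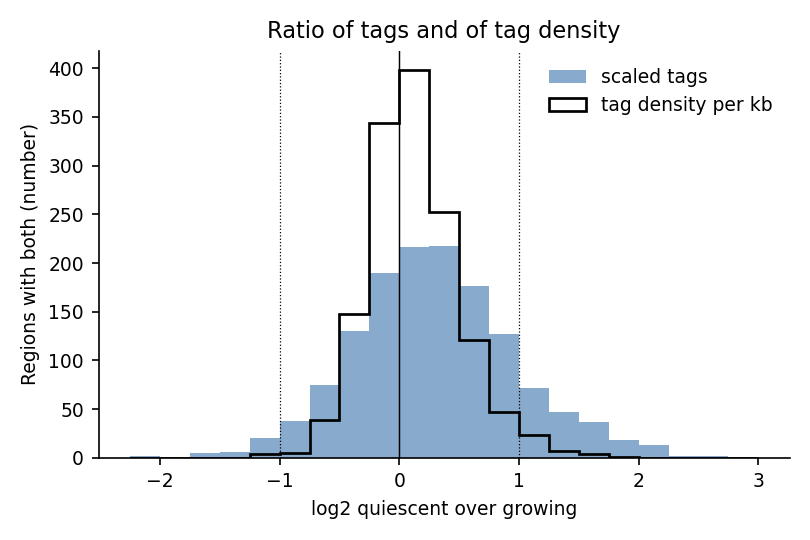
Number of regions with both (vertical axis) by log2 ratio of quiescent over growing (horizontal axis, 0.25 per bar), for scaled tags (filled) and for tag density per kb of peak (black outline); dotted lines mark 2-fold. The density ratios lie closer to 0, with a median of 0.084 against 0.27 for scaled tags.

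The regions that ranked highest in both lists by scaled tags covered 3193 to 22627 bp, and 8 of them were higher in quiescent cells. There were 9, because 3 tied for the last places. The first, on chromosome 11 at 65020420 to 65033118, had 80.3 scaled tags in growing cells (76.6 to 84.1) and 96.1 in quiescent cells (92.3 to 99.97), a ratio of 1.20 (1.13 to 1.27). A second on chromosome 11, at 62036797 to 62055758, had 67.3 and 79.4, a ratio of 1.18 (1.10 to 1.26). Another there, at 64943891 to 64955480, had 57.1 and 66.8, a ratio of 1.17 (1.09 to 1.26). These 3 ratios were close to the median of 1.20. Their intervals, like those of all ratios here, do not cover differences in the called borders, and by density the ratios were 0.947, 1.15 and 1.05 in the same order. The region on chromosome 17 at 55269223 to 55279445 had 35.9 and 44.7 scaled tags, a ratio of 1.25 (1.14 to 1.37), and the 2 summits were at the same base. On chromosome 1, the region at 85814294 to 85825717 had 47.3 and 71.4 scaled tags, a ratio of 1.51 (1.399 to 1.63), with summits 9 bp apart.

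Of the 9 leading regions, 3 were at least 2-fold higher in quiescent cells. On chromosome 6, the region at 132308072 to 132315033 had 23.2 scaled tags in growing cells (21.3 to 25.3) and 64.1 in quiescent cells (61.0 to 67.3), a ratio of 2.76 (2.50 to 3.05), with summits 42 bp apart. On chromosome 12, the region at 123959421 to 123962613 had 25.1 (23.04 to 27.2) and 60.3 (57.3 to 63.4), a ratio of 2.41 (2.18 to 2.66), with summits 122 bp apart. Their peaks were of similar width in both lists on chromosome 12 (3193 and 3083 bp) and wider in quiescent cells on chromosome 6 (5319 and 6962 bp). By density, both stayed at least 2-fold higher in quiescent cells, with ratios of 2.49 on chromosome 12 and 2.11 on chromosome 6. The other, on chromosome 2 at 151030189 to 151052815, had 32.8 and 67.1 scaled tags, a ratio of 2.04 (1.87 to 2.23). It held 3 growing and 2 quiescent peaks, and its density ratio was 1.37. The ninth region, on chromosome 17 at 45611878 to 45625875, was the only leading region lower in quiescent cells, with 40.3 and 33.0 scaled tags, a ratio of 0.818 (0.744 to 0.899). All 9 overlapped an RB knockdown peak, as did 85.9% of all regions with both. Among regions with both at 8 scaled tags or more, the share was 96.7% (88 of 91) by growing tags and 96.2% (153 of 159) by quiescent tags.

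**Figure D4:**
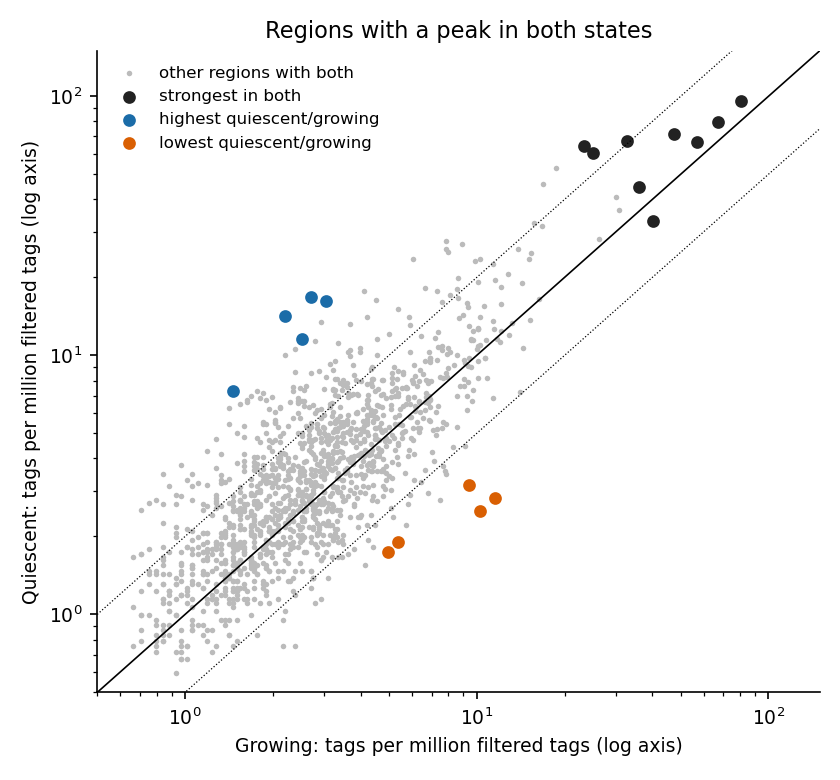
Scaled tags of the 1393 regions with both in growing (horizontal) and quiescent cells (vertical), in scaled tags on log axes; the solid line marks equal values and the dotted lines 2-fold. Black points are the 9 strongest regions, blue and orange points the 5 regions with the highest and the 5 with the lowest ratio, and most points lie above the solid line (927 of 1393).

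The extremes of the ratio were taken among the 1120 regions with exactly 1 peak of each list and at least 30 tags in each, and as extremes they carry no test. At the quiescent end, the region on chromosome 15 at 41603413 to 41609985 had 2.21 scaled tags in growing cells (1.64 to 2.91) and 14.2 in quiescent cells (12.7 to 15.7), a ratio of 6.41 (4.76 to 8.80). The region on chromosome 2 at 227361845 to 227370328 had 2.70 and 16.8, a ratio of 6.22 (4.75 to 8.28). The ratio was 5.33 at 2751940 to 2759864 on chromosome 16. It was 5.004 at 73749054 to 73752251 on chromosome 10, and 4.60 at 76567428 to 76571108 on chromosome 14. In all 5 a narrow growing peak of 805 to 1863 bp overlapped a quiescent peak of 2746 to 7925 bp. The growing peaks had FDRs of 69.2% to 78.0%, so these calls are not secure. The quiescent peaks had FDRs of at most 0.41%. Their density ratios were 1.23 to 1.48. At these sites the quiescent library thus had a broad called domain where the growing library had a short one. All 5 had an RB knockdown peak, beside 91.1% of the 191 regions at least 2-fold higher in quiescent cells.

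At the growing end, the region on chromosome 2 at 173926478 to 173929003 held the growing peak of highest fold enrichment in the list, 51.97-fold over its local background. It had 11.6 scaled tags in growing cells (10.2 to 13.1) and 2.82 in quiescent cells (2.20 to 3.55), a ratio of 0.243 (0.184 to 0.317), or 4.11-fold lower. The summits lay 6 bp apart and the density ratio was 0.478, so this site was lower in quiescent cells by either measure. The RB knockdown list had a peak of 74.3-fold enrichment there. On chromosome 20, the region at 5046411 to 5048855 had 9.41 scaled tags in growing cells (8.19 to 10.8) and 3.17 in quiescent cells (2.52 to 3.95), a ratio of 0.337 (0.257 to 0.438), with a density ratio of 0.518. Its RB knockdown peak had 47.3-fold enrichment.

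The other 3 regions at the growing end had low enrichment, up to 4.87-fold in growing cells. The region on chromosome 11 at 65373890 to 65379111 had 10.3 and 2.50 scaled tags, a ratio of 0.243 (0.181 to 0.322), over a growing peak of 5222 bp and a quiescent peak of 1701 bp. Those on chromosome 13 (50923602 to 50926643) and chromosome 19 (4324489 to 4327103) each had a ratio of 0.353. Their growing peaks had enrichments of 3.61-fold and 4.10-fold and FDRs of 72.3% and 64.35%. On chromosome 13 the density ratio was 1.21, the other way round from the tags. The chromosome 19 region was the only one of these 5 without an RB knockdown peak.

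**Figure D5:**
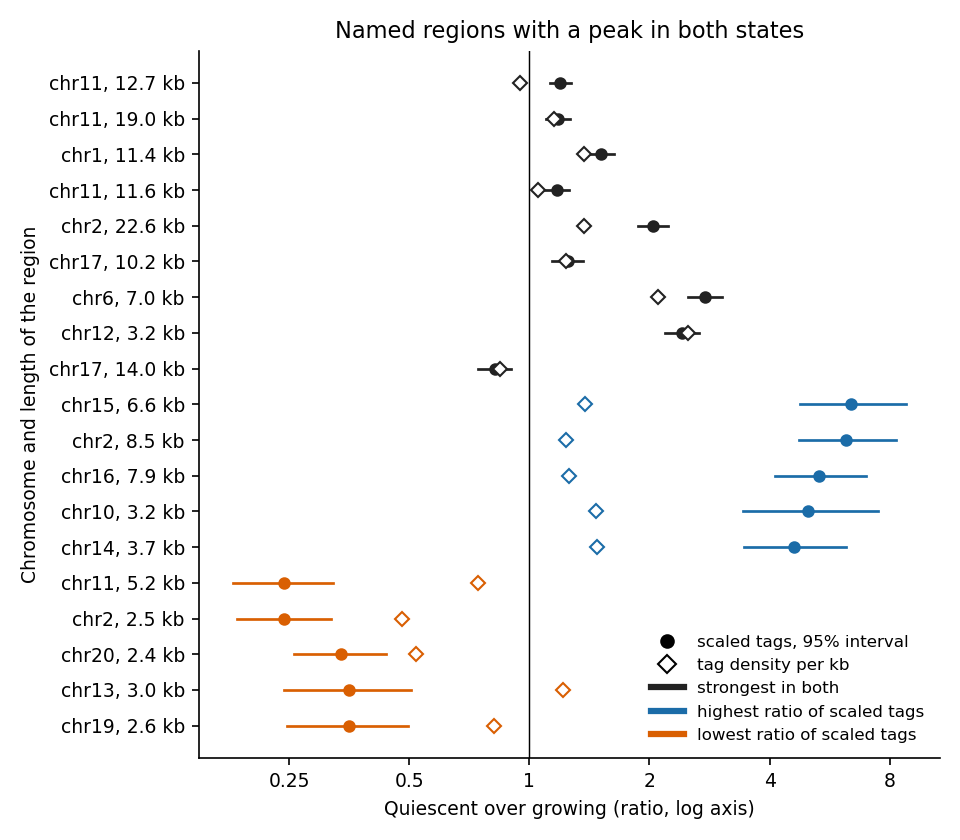
Quiescent over growing ratio (horizontal, log axis) of scaled tags (filled circles, lines are 95% exact intervals) and of tag density per kb (open diamonds) in the 19 named regions with both, labelled by chromosome and merged length. Tags and density lie close together on chromosome 12 (2.41 and 2.49) but far apart at the quiescent end, where tag ratios of 4.60 to 6.41 stand beside density ratios of 1.23 to 1.48.

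The growing peaks of highest enrichment were looked at as a group, with a threshold of 15-fold enrichment chosen after the values were seen. There were 19 such peaks, and 18 had a quiescent partner, beside 15.2% of all growing peaks. The exception, on chromosome 3 at 17418245 to 17418828, had 35 tags and an FDR of 5.59%, and it overlapped an RB knockdown peak. In the 18 regions the median ratio of scaled tags was 0.940, with 9 above and 9 below 1, and in 13 the distance between summits was at most 200 bp. Of all regions with both, 66.5% had a ratio above 1 and 59.8% had summits within 200 bp. All 18 had an RB knockdown peak, with enrichments of 12.8-fold to 86.5-fold, beside 85.9% of all regions with both. In the classes of regions with both from 2 growing scaled tags upwards, that share was 93.8% to 96.7%. Next to the chromosome 2 site, the peak of second highest enrichment (34.2-fold), on chromosome 20 at 35157392 to 35158609, had 95 growing and 56 quiescent tags, a ratio of 0.529 (0.373 to 0.744), with summits 5 bp apart.

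Quiescent peaks of such enrichment were more numerous. There were 198 with at least 15-fold enrichment, of which 102 (51.5%, 44.3% to 58.7%) had a growing partner, beside 13.8% of all quiescent peaks. In the regions of those 102 the median ratio of scaled tags was 1.84, 94 were above 1, and 84 had summits within 200 bp. In all regions with both the median was 1.20, with 66.5% above 1 and 59.8% with summits within 200 bp. Choosing peaks by their enrichment in a library favours high values in that library, so the 18 and the 102 regions are given as descriptions only. The top one, on chromosome 4 at 8355674 to 8357255, had 54 growing and 266 quiescent tags, a ratio of 4.42 and a density ratio of 3.12, with summits 58 bp apart. Its growing peak had an FDR of 78.6%. Only 10 regions reached 15-fold in both lists.

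Grouping by enrichment in the RB knockdown list, which neither state's library entered, gave no steady trend. The median ratio of scaled tags was 1.08 in the 197 regions without an RB knockdown peak, 1.19 in the 289 with enrichment under 8-fold, and 1.21 in the 630 from 8-fold to 15-fold. It was 1.36 in the 193 regions from 15-fold to 25-fold and 1.10 in the 84 regions at 25-fold or more. The last group spread widely, with quartiles of -0.52 and 0.76 on the log2 scale. It held 14 regions (16.7%) at least 2-fold higher in quiescent cells and 6 (7.14%) at least 2-fold higher in growing cells, against 13.7% and 2.37% of all regions with both.

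By tag density, 4 regions were at least 2-fold higher in growing cells, all with enrichments of at least 11.2-fold in the growing list. Their density ratios were 0.458 to 0.492. One was the chromosome 2 site at 173926478, and the others lay at 46410582 to 46412616 on chromosome 15, at 263879 to 265590 on chromosome 12 and at 72169367 to 72171530 on chromosome 6. On chromosome 15 there were 130 growing and 56 quiescent tags, with summits 67 bp apart and 30.3-fold enrichment in the RB knockdown list. On chromosome 6 the tags were 173 and 140, with summits 29 bp apart. The growing peaks of all 4 had an FDR of 0%. The 35 regions at least 2-fold denser in quiescent cells had a median enrichment of 6.03-fold in growing cells and 19.3-fold in quiescent cells, each over its own background. An RB knockdown peak lay in 34 of the 35, beside 85.9% of all regions with both, which were not matched to them for strength.

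Summits of the paired peaks lay close together, though the overlap required of a pair limits this distance in advance. In the 1335 regions with exactly 1 peak of each list the median distance was 135 bp (quartiles 52.5 and 363.5 bp), less than the fragment length of 200 bp. The summits lay within 50 bp in 24.1%, within 200 bp in 61.2% and within 500 bp in 81.5% of these regions. Where both peaks had an FDR of at most 5% (105 regions) the median was 89 bp. With at least 8 scaled tags in either list (143 regions) it was 132 bp, but the upper quartile was 1026.5 bp and 64.3% lay within 500 bp. In the 57 regions with peaks of at least 3000 bp in both lists the median was 413 bp. The leading chromosome 11 region is an example of such wide peaks, with summits 4642 bp apart inside peaks of 10052 and 12699 bp.

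Broad domains in both lists made up a small number of regions and a large part of their tags. In 86 regions (6.17% of those with both) the peaks covered at least 3000 bp in each list. These held 24.0% of the growing and 25.7% of the quiescent tags of regions with both. Their median ratio was 1.20, as in all regions with both.

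Strong regions in 1 list alone were more frequent in the quiescent list, whose peaks held more of its library's tags (2.74% against 1.49%). There were 106 quiescent-only and 21 growing-only regions with at least 8 scaled tags, out of 261 quiescent and 105 growing peaks of that strength. The strongest of all, on chromosome 15 at 37657607 to 37680058, was a quiescent peak of 22452 bp with 2789 tags, or 110.6 scaled tags (106.6 to 114.8), and the highest scaled tags of either list. No growing peak overlapped it, while the RB knockdown list had 4842 tags there. The next quiescent-only regions were on chromosome 1 (141476809 to 141484552, 32.4 scaled tags), chromosome 7 (134112557 to 134123673, 30.6), chromosome 2 (237891869 to 237901230, 23.6) and chromosome 17 (22286979 to 22292440, 23.4). Those on chromosomes 1 and 17 had no RB knockdown peak, and their enrichments were 3.05-fold and 3.96-fold. Of the 106 quiescent-only regions with at least 8 scaled tags, 100 (94.3%) had one. The chromosome 1 region had an FDR of 50.1%.

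The strongest growing-only regions had fewer tags. They lay on chromosome 11 (65411557 to 65418715, 17.8 scaled tags), chromosome 5 (172124096 to 172130630, 16.8), chromosome 7 (130243664 to 130249645, 16.04, and 93897099 to 93901150, 14.3) and chromosome 10 (63481684 to 63488238, 14.3). Their peaks were 4052 to 7159 bp wide with enrichments of 4.20-fold to 4.88-fold, so none reached the 15-fold threshold. Their FDR ran from 2.0% on chromosome 5 to 74.6% on chromosome 11. All 5 overlapped an RB knockdown peak, with 662 to 1585 tags in that list, as did 19 of the 21 growing-only regions (90.5%) with at least 8 scaled tags.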

How the data were processed

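The authors deposited 1 peak list per library. Per the submitters' processing notes, Bowtie and the human build hg18 were used for alignment. Peaks were called with MACS 1.4.1 on each library alone against 1 control library, per the file headers, with a p cutoff of 1e-05, at most 2 tags per position and local background over 1000 and 10000 bp. Per the file headers, each peak has a tag count (ChIP tags in the peak), a score of 10 times the negative log10 of p, a fold enrichment, which is a ratio over local background, and an FDR in percent. These are the authors' values, and the last 3 describe peaks within a list.

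From the deposited counts, scaled tags, merged regions (tags and widths summed over their peaks, with the best fold and FDR), ratios and exact Poisson or binomial intervals were computed (pandas 2.3.3, scipy 1.17.1) and the code was tested on simulated lists. The members, lists and thresholds were chosen with earlier results of these data known. Named regions were the 8 strongest in both lists by rank sum (9 with ties), the 5 highest and 5 lowest ratios, and the 5 regions with most tags in each state alone; others are named where a threshold was chosen after the values were seen. No hg18 genome or annotation was at hand, so planned motif and promoter counts were not made and no gene is assigned. Chromosome Y was left out.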

Additional observations from a re-analysis of the deposited data

How the results depend on the processing

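The median log2 ratio stayed above 0 under all 11 alternatives, and 38 of 77 recomputed values stayed within the interval of the reported value (for the number of regions, within 1.5 times). Keeping peaks scored 100 or higher left 379 regions with both; 47.1% of growing peaks had a partner, the summits were 114 bp apart, and 96.0%, 58.7% and 77.2% of regions with both, growing-only and quiescent-only regions had an RB knockdown peak. With an FDR of at most 5% these became 124 regions, 73.4%, 96 bp, 96.8%, 91.3% and 82.4%. There 6.99% of the 1816 quiescent peaks had a partner among the 173 growing peaks. The median log2 ratio was 0.22 and 11.3% of regions were 2-fold higher in quiescent cells. The growing-only share in the RB knockdown list was thus below the quiescent-only share for all peaks and above it at this FDR. Only 46 growing-only regions were counted there, some of them with a quiescent peak that failed the limit, so the turned order rests on few regions. With at least 30 tags per peak the partner shares were 37.2% and 15.1% (growing, quiescent) and the RB knockdown shares 91.2%, 38.9% and 62.3%. Under each of these thresholds, a region of 1 state alone is one without a passing peak in the other list. The RB knockdown shares under thresholds were added after seeing the data.

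A reciprocal overlap of at least 50% gave partner shares of 11.8% and 10.9%, a log2 ratio of 0.22, 6.80% and 1.43% of pairs 2-fold higher in quiescent and growing cells, and 115 bp. Summits within 200 bp left 850 pairs, 8.98% and 8.31%. Exactly 1 peak of each list gave 14.1% and 13.1%, and peaks under 3000 bp gave 12.95% and 12.1%, with 10.3% of regions 2-fold higher in quiescent cells. Scaling by total tags gave a log2 ratio of 0.35 and 16.4% at 2-fold; tag density gave 0.084, 2.51% and, in growing cells, 0.287%. No paired analysis was possible because each state has 1 library. Depth limits single regions: the median interval of a ratio ran from 0.841 to 1.73.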

Other observations

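The share of regions held by both states differed between chromosomes. It was 14.4% (12.2% to 16.9%, 135 of 935) on chromosome 17 and 13.7% (11.4% to 16.4%, 104 of 757) on chromosome 19, against 7.64% over all. It was 3.36% (1.80% to 5.68%, 13 of 387) on chromosome 18 and 4.26% (3.03% to 5.79%) on chromosome 5. Among regions of 1 state alone, 47.7% were growing-only over all chromosomes, 59.3% (55.4% to 63.1%) on chromosome 19, 59.2% (54.3% to 63.9%) on chromosome 20 and 56.6% (53.1% to 60.1%) on chromosome 17, against 41.0% (37.6% to 44.5%) on chromosome 4 and 41.0% (37.5% to 44.7%) on chromosome 8. Growing-only regions outnumbered quiescent-only regions on 8 of 23 chromosomes.

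The median ratio of scaled tags in regions with both was above 1 on 22 of 23 chromosomes, from 0.10 on chromosome 17 to 0.51 on chromosome 5 on the log2 scale. The exception was chromosome 22, at -0.12 over 33 regions. By tag density it was above 1 on 21 of 23, with chromosomes 20 and 22 at -0.01 and -0.002.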
